A study of Arabidopsis thaliana with 8 samples.

Results

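When heat at 43 °C was extended to 3 h, against 1 h, most of the transcripts listed by the authors stayed close to the level they had reached in the first hour in Arabidopsis shoots grown without brassinosteroid. The comparison covers the log2 level at 3 h minus the log2 level at 1 h in control seedlings, called the later step here, for all 708 probe sets that the authors' deposited fold table sets against unstressed seedlings, out of 22757 rows on the array's value table. A probe set is the group of oligonucleotides on the array that reads out 1 transcript or a few alike ones, and 671 of the 708 carry 1 locus in the deposited table, 34 carry several and 3 carry none. The question was which genes go on rising, go on falling or turn back when heat lasts longer.

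The series holds 8 groups of the Columbia ecotype, all 21 days old at the stress, with RNA from shoots above the medium on the ATH1 array. The groups used here are, in the EBR arm, seedlings grown for 21 days with 1 µM 24-epibrassinolide (EBR, a synthetic brassinosteroid, a class of growth-promoting steroid hormones) at 0 h, 1 h and 3 h of heat, and, in the control arm, seedlings grown with 0.01% ethanol in its place at the same times. Seedlings that recovered at 22 °C are not in the authors' fold table and were not used. No unheated group was taken at 1 h or 3 h, so longer heat cannot be told apart from the passing of time of day. None of the 14 genes of the circadian clock list is among those listed. Each group has 1 deposited value per probe set, which per the labels stands for 3 biological replicate arrays of material pooled from at least 30 seedlings. There is therefore no replicate spread for any level or step, no test and no p-value. Each value is the authors' own summary of the arrays of its group. As the RNA comes from whole shoots, fewer cells of a type and less RNA per cell cannot be told apart. The shoot marker list could not be used to check the tissue, since none of its members is among the 708 listed.

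Plants meet sudden heat with heat shock factors, transcription factors that switch on genes for chaperones, the proteins that keep others folded. Growth, cell division and cell wall genes are commonly lowered under such heat, and dehydration, jasmonate and salicylate genes are other parts of the stress response. A longer exposure can hold, extend or undo the early changes.

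The listed probe sets were selected by the authors on these samples. Per the file headers the authors kept probe sets whose adjusted treatment p in a factorial variance analysis did not exceed 0.05 and that lay 2-fold or more from the 0 h control in at least 1 of 5 pairs. Those pairs include both control groups compared here, so the share past a fold describes this list and not the array. If treatment there means EBR, the list is also selected for differences between the arms and is not a list of all heat responders. Levels are log2 values with a baseline set for each probe set, so they can be followed over time for 1 gene but not compared between genes.

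The median later step in the control was 0.0037, with quartiles of -0.20 and 0.17 and a range of -2.17 to 0.87. Of the 708 probe sets 655, or 92.5%, moved by less than 1.5-fold. At 2-fold, 10 were lower at 3 h than at 1 h (1.41% of those listed) and 0 were higher (0%). At 1.5-fold, 41 were lower (5.79%) and 12 were higher (1.69%). The large steps thus lay on the lower side. Of these 10, 9 exceeded 3 approximate standard errors read from the deposited value table, PCC1 being the exception, but those errors are rough and may be too small. In the first hour, 1 h against 0 h, 80 of the 708 lay at least 2-fold up (11.3%) and 145 at least 2-fold down (20.5%), but the list was selected for departure from 0 h, which raises these shares.

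**Figure D1:**
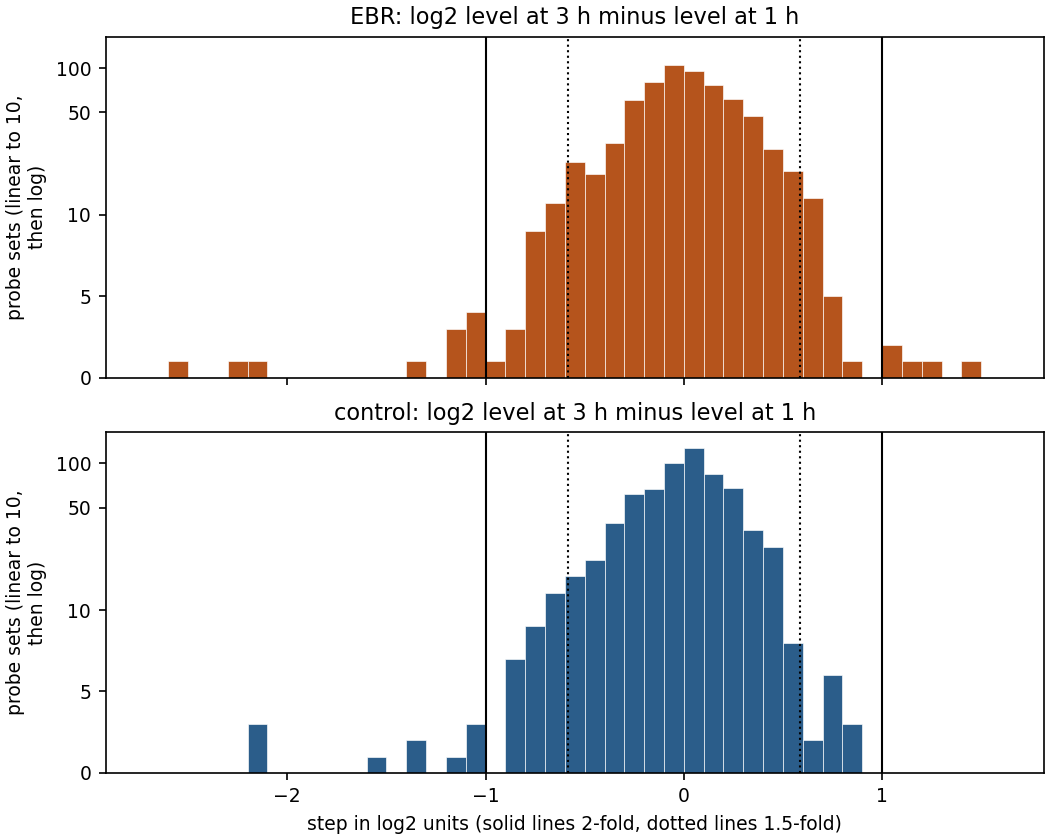
Histograms of the later step (log2 level at 3 h minus log2 level at 1 h) over the 708 listed probe sets, EBR above and control below, with the number of probe sets on an axis that is linear to 10 and logarithmic beyond. In the control, 10 probe sets lie left of the 2-fold line on the lower side and 0 lie beyond it on the higher side.

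Heat genes with a large early response stayed near their 1 h level. HSF4 (AT4G36990), a class B heat shock factor, had log2 levels of -8.16, -0.06 and 0.13 in the control at 0 h, 1 h and 3 h. Its level thus lay far above the unstressed one at both heat times, with a later step of 0.20. Hsp70-2 (AT5G02490), a cytosolic chaperone of the HSP70 family, had -5.06, 0.34 and 0.16. J2 (AT5G22060), a J-domain co-chaperone, had -3.53, 0.04 and -0.10. Both chaperone genes had later steps below 0, of -0.18 and -0.15. GolS1 (AT2G47180), a galactinol synthase that makes a precursor of the raffinose sugars and was chosen after its values were seen, had -6.71, 0.01 and 0.01.

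Large early decreases likewise stayed. EXPA1 (AT1G69530), an expansin that loosens cell walls, had 4.0, 0.27 and 0.27 at 0 h, 1 h and 3 h. BRH1 (AT3G61460), a RING finger gene known as brassinosteroid responsive, had 2.07, -0.90 and -0.72. RR16 (AT2G40670), a cytokinin response regulator, had 2.43, -0.02 and -0.02. Set against 0 h, 72 lay at least 2-fold up at 3 h and 80 at 1 h, with 61 in both counts and 11 new at 3 h. On the lower side 158 were at least 2-fold lower at 3 h and 145 at 1 h, with 122 in both and 36 new at 3 h. Of the 80 that were higher at 1 h, 6 had a later step at least 1.5-fold lower and 0 at least 1.5-fold higher, and their median later step was -0.07. Of the 145 that were lower at 1 h, 13 had a later step at least 1.5-fold lower and 5 at least 1.5-fold higher, with a median of 0.0022.

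**Figure D2:**
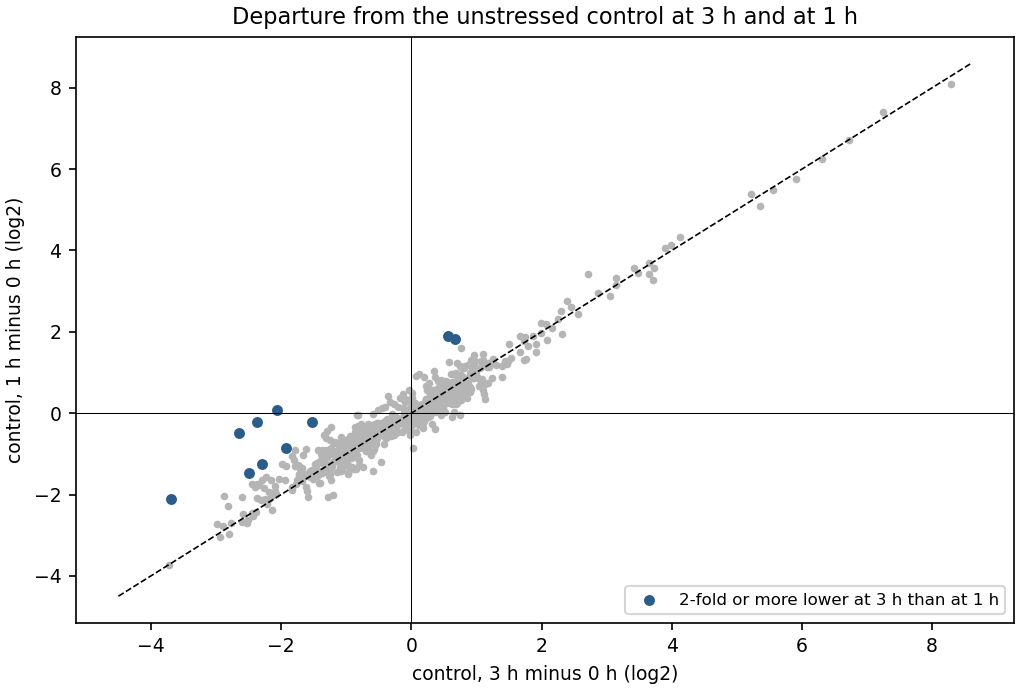
Departure of each listed probe set from the unstressed control (log2), at 3 h on the horizontal axis and at 1 h on the vertical axis, with the line of equality dashed. Most of the 708 points lie near the line, and the 10 coloured points, lower at 3 h than at 1 h by 2-fold or more, lie above and left of it.

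Each probe set was placed in a course by its first-hour and later steps at 2-fold. Both steps use the same 1 h value, with opposite sign, so an error in that value alone can make a course turn. The courses are therefore counts and no test of a turn. No probe set was higher in both steps and none was lower and then higher. Lower in both steps were 3, higher and then lower were 2, and lower from 1 h to 3 h alone were 5. Those that passed the fold in the first hour alone were 78 on the higher and 142 on the lower side, and 478 passed it in neither step. At 1.5-fold, none was higher in both steps, 18 were lower in both, 9 were higher and then lower, 6 were lower and then higher, 6 were higher in the later step alone and 14 were lower in the later step alone.

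The 3 lowest later steps came from probe sets that had moved by less than 1.5-fold in the first hour in the control. PCNA2 (AT2G29570), which encodes the sliding clamp that holds DNA polymerase on its template, had log2 levels of 1.39, 1.47 and -0.67 in the control at 0 h, 1 h and 3 h. It was 4.42 times lower at 3 h than at 1 h. Probe set 244979_at, which has no locus in the deposited table, had 1.81, 1.33 and -0.84, and was 4.49 times lower at 3 h. Probe set 244980_at, also without a locus, had 1.45, 1.23 and -0.92 and was 4.43 times lower. All 3 showed a like course in the EBR arm, where PCNA2 had 0.95, 0.79 and -1.78, 244979_at had 1.29, 0.68 and -1.47, and 244980_at had 1.17, 0.59 and -1.68. These are the 3 of the 10 that were also 2-fold lower at 3 h with EBR.

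A further pair of probe sets was at least 2-fold lower in the later step and under 2-fold in the first hour. AT3G15350, annotated to carbohydrate biosynthesis and to membranes in the deposited table, had 0.02, -0.20 and -1.51 in the control at 0 h, 1 h and 3 h, with a mean signal of 16 at 3 h and 39.2 at 0 h on the linear scale. KCS3 (AT1G07720), a member of the 3-ketoacyl-CoA synthase family that lengthens fatty acids for waxes and membranes, had 0.27, -0.58 and -1.65. The mean signal of KCS3 was 12.6 at 3 h, and neither gene had a signal listed at 1 h. The first-hour step of KCS3 was -0.85, past 1.5-fold, while that of AT3G15350 was -0.22. Unlike PCNA2, these had EBR steps near 0, of -0.06 for AT3G15350 and -0.15 for KCS3.

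The 3 probe sets lower in both steps had their lowest value at 3 h. SLAH3 (AT5G24030), a slow-type anion channel that passes nitrate and chloride out of guard cells, had 0.23, -1.02 and -2.06 at 0 h, 1 h and 3 h. Its mean signal was 52.3, 16.7 and 8.31, close to the lowest signal listed at 3 h (5.27). ARF6 (AT1G30330), an auxin response factor that activates auxin-regulated genes, had 0.91, -0.57 and -1.59. The probe set shared by AT1G57980 and AT1G57990, annotated to purine transport, had 1.11, -1.01 and -2.58, and the 2 loci cannot be told apart by it. Its signal was 333, 76.1 and 29.7, and its log2 level at 3 h minus that at 0 h was -3.69, the widest such gap among the 10.

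Both probe sets that turned back at 2-fold were genes low before heat. PCC1 (AT3G22231), a small membrane-associated protein known from pathogen and circadian responses, had -1.90, -0.01 and -1.33 at 0 h, 1 h and 3 h, with signals of 11.1, 49.4 and 17.7. At 3 h it lay 2.49 times under its 1 h level and 0.57 log2 above its unstressed level. AT5G13200, a gene of the GRAM domain family, had -2.11, -0.27 and -1.44, with signals of 9.03, 31.5 and 14. It lay 0.66 log2 above its unstressed level at 3 h. In neither gene did the 3 h level reach that of 0 h. The approximate SD of the control at 1 h, a rough reading from the value table, was 0.68 for PCC1 and 0.03 for AT5G13200. Its median over all listed was 0.13. The part of error at 1 h in these turns was not tested.

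**Figure D3:**
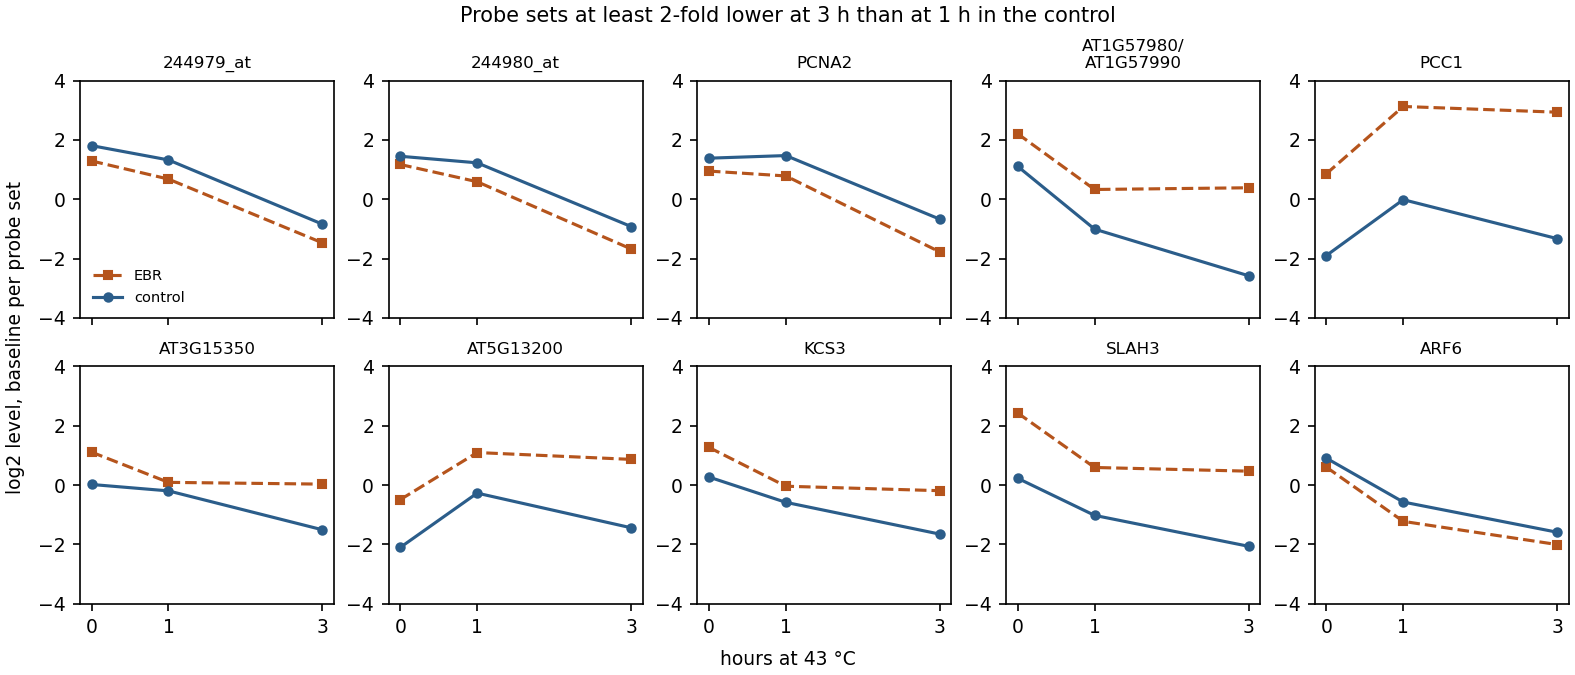
Log2 level at 0 h, 1 h and 3 h of heat for the 10 probe sets at least 2-fold lower at 3 h than at 1 h in the control, EBR as squares with dashed lines and control as circles with solid lines, 1 deposited value per point. PCNA2 and the 2 probe sets without a locus drop in both arms after 1 h, while 6 others have an EBR step within 0.25 of 0.

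The value just inside the 2-fold bound was ARF6 at -1.02. Just outside it were AT2G25510 at -0.89 and AT5G01870 at -0.89. AT2G25510 was among the brighter members, with a mean signal of 777 at 3 h and 1414 at 1 h. AT5G01870, annotated to lipid transport, was dim, with 6.37 at 3 h and 12.7 at 1 h. Of the 19 probe sets at least 1.5-fold lower that had a mean signal at both times, 11 were under 50 at 3 h. The part of low signal in these steps was not tested.

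Transcription regulators stood in several of the courses at 1.5-fold. GBF6 (AT4G34590), also called bZIP11, a basic leucine zipper factor of sugar and amino acid metabolism, had -0.09, -0.53 and -1.38 at 0 h, 1 h and 3 h. DREB26 (AT1G21910), an AP2/ERF family factor, had 1.12, -0.14 and -0.87 and so was lower in both steps. NAC069 (AT4G01550), a membrane-bound NAC family factor, went the other way in the first hour, with -1.41, 0.19 and -0.65. SIB1 (AT3G56710), a sigma factor binding protein of defence, had -3.36, 0.05 and -0.64. Its signal was 12.6, 135 and 85.7, so most of its early increase was still present at 3 h. Of the 36 listed probe sets annotated to transcription factor activity, 4 were at least 1.5-fold lower and 0 higher, against 5.79% and 1.69% of all listed, and their median step was 0.05.

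Of the 34 listed probe sets annotated to defense response, 0 were at least 1.5-fold lower and 1 was higher, with a median later step of -0.02. Of the 11 annotated to jasmonic acid response, 2 were lower and 1 was higher, with a median of -0.20, against 5.79% lower and 1.69% higher over all listed. LOX2 (AT3G45140), the chloroplast lipoxygenase at the start of jasmonate synthesis, had log2 levels of -0.49, -0.06 and -0.85, and signals of 749, 1005 and 624. BGLU18 (AT1G52400), a beta-glucosidase that frees abscisic acid from its glucose conjugate, had -0.03, -0.08 and -0.84, and signals of 832, 827 and 503. Both were lower at 3 h than before heat. AT1G52000, a lectin family gene, had -1.32, -0.35 and -1.19, and HR4 (AT3G50480), a homologue of a powdery mildew resistance gene, had -0.76, 0.50 and -0.18. These last 2 turned back towards the 0 h level. The probe set shared by AT1G52030 and AT1G52040 had -1.30, -0.39 and -1.22, close to the course of AT1G52000.

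The 18 probe sets lower in both steps at 1.5-fold were of mixed annotation. AIR12 (AT3G07390), an auxin-induced cytochrome of the plasma membrane, had 1.52, -0.22 and -0.93 at 0 h, 1 h and 3 h. AT3G18280, annotated to lipid transport, had 0.71, -0.92 and -1.57, with signals of 383, 138 and 79.2. AT3G49220, annotated to cell wall modification, had 0.85, -0.30 and -0.96. AT1G01300, annotated to proteolysis and the cell wall, had 0.89, 0.01 and -0.72. AT1G13730, annotated to RNA binding, had 1.35, 0.32 and -0.32, AT4G27620, annotated to the mitochondrion, had 0.87, 0.21 and -0.38, and AT2G34810, annotated to oxidoreductase activity and wounding, had 0.96, -0.77 and -1.41. LTI78 (AT5G52310), the cold and dehydration gene also called RD29A, was lower in the later step alone, with -1.65, -1.37 and -1.98.

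No listed probe set was 2-fold higher at 3 h than at 1 h, and none was 1.5-fold higher in both steps. EXT4 (AT1G76930), an extensin of the cell wall, had the highest later step, with log2 levels of -0.07, -0.92 and -0.04 at 0 h, 1 h and 3 h, and signals of 272, 143 and 254. Its 3 h level thus lay close to its unstressed level, and the 2 scales differ in the sign of that small gap. UMAMIT28 (AT1G01070), an amino acid exporter, had 0.01, -1.42 and -0.59, with signals of 21.6, 8.12 and 14.6. P1R1 (AT5G57780), annotated to regulation of transcription, had 2.42, 0.41 and 1.22.

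The other 3 that were lower and then higher at 1.5-fold showed a partial return. ATL8 (AT1G76410), a RING finger ubiquitin ligase, had 1.58, -0.47 and 0.29 at 0 h, 1 h and 3 h, and signals of 105 at 3 h and 63.6 at 1 h. SYTC (AT5G04220), a synaptotagmin of membrane contact and traffic, had 0.91, -0.29 and 0.45. TI1 (AT2G43510), a trypsin inhibitor of the defensin-like kind, had -0.70, -2.03 and -1.44. At 3 h the normalized levels of all but EXT4 among these 6 lay below those of 0 h.

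Higher in the later step alone were 6 probe sets. EDA39 (AT4G33050), a calmodulin-binding protein, had -1.08, -0.74 and 0.05 at 0 h, 1 h and 3 h, with signals of 135, 134 and 230. DAA1 (AT1G64110), an AAA-type ATPase, had -1.48, -1.53 and -0.74. AT2G25780 had 1.19, 0.80 and 1.56, with signals of 19.4, 15.4 and 36.4. On that signal scale AT2G25780 passed 2-fold, the 1 probe set to do so upwards among the 177 with a signal at both times. AT2G28940, annotated to protein phosphorylation, had -0.23, -0.32 and 0.40. AT5G14470, annotated to kinase activity, had 0.51, 0.54 and 1.16. AT4G16770, annotated to oxidoreductase activity, had -0.88, -0.40 and 0.23.

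**Figure D4:**
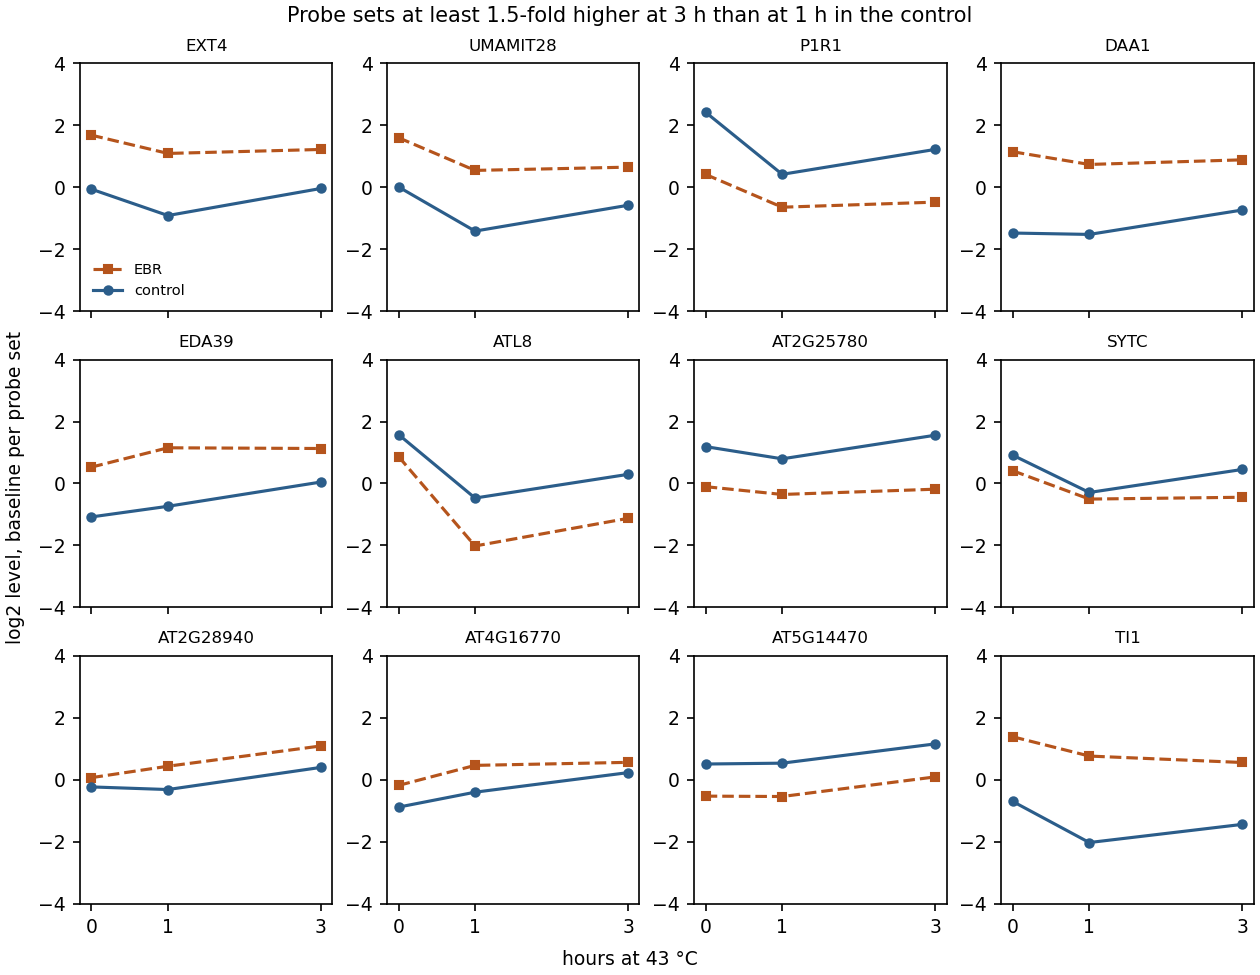
Log2 level at 0 h, 1 h and 3 h of heat for the 12 probe sets at least 1.5-fold higher at 3 h than at 1 h in the control, EBR as squares with dashed lines and control as circles with solid lines, 1 deposited value per point. The control lines turn upward after 1 h, and among these 12 the EBR line of ATL8 has the highest later step, 0.89.

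The 22 lists of heat, hormone and other pathways, of which 7 had no listed member, held 50 listed members in all, and 2 of those passed 1.5-fold, LTI78 and LOX2, both lower. Over all 708 listed, 53 passed it in either direction, or 7.49%. The heat shock factor list of 26 genes had 2 listed members, HSF4 and HSF A4A (AT4G18880), with later steps of 0.20 and 0.38. The HSP70, HSP90 and HSP100 list of 27 genes had 3, Hsp70-2, J2 and the mitochondrial mtHsc70-1 (AT4G37910), with steps of -0.18, -0.15 and -0.12. No member of the small heat shock protein list, of 16 genes, or of the endoplasmic reticulum folding list, of 10, was among those listed, so nothing is shown here of their later step.

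The abscisic acid and dehydration list had 8 listed members of 28, with a median later step of -0.12, 3 above 0 and 5 below, against a median of 0.0037 over all listed. Besides LTI78 they included ERD7 (AT2G17840) at 0.47, COR15A (AT2G42540), a chloroplast protectant, at -0.22 and RD20 (AT2G33380), a calcium-binding caleosin, at -0.19. The 4 listed salicylate and pathogen defence genes had a median of -0.21, with LURP1 (AT2G14560) at -0.37 and WRKY70 (AT3G56400), a transcription factor, at -0.33. The 4 cytokinin response regulators, all at least 2-fold lower in the first hour, had later steps of -0.24 to 0.30 with ARR7 (AT1G19050) the highest. The 4 lipid transfer proteins, likewise at least 2-fold lower in the first hour, had -0.23 to 0.33. The lowest of these was LTP4 (AT5G59310), whose step from mean signal was 0.41, so its direction turns with the scale, as does that of EARLI1 (AT4G12480), at 0.06 from normalized values and -0.04 from signal. The 3 brassinosteroid genes BEE2 (AT4G36540), BRH1 and BAS1 (AT2G26710) had steps of 0.23, 0.17 and 0.03. The 8 glutaredoxins had a median of 0.06, with AT4G15690 the highest at 0.43.

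Gene Ontology terms in the deposited table gave 26 groups of 10 or more members, whose median later steps lay between -0.25 and 0.08. Their counts at 1.5-fold stand beside 1.69% higher and 5.79% lower over all listed, and no group is called particular from them. Lipid transport had the lowest median, with 8 of 10 members below 0 and 2 of 10 at least 1.5-fold lower, the 2 being AT5G01870 and AT3G18280. The ribosome group had a median of -0.16, with 8 of 10 below 0 and none past 1.5-fold, and AT2G40010 the lowest at -0.52. Translation, with 16 members that overlap the ribosome group, had a median of -0.13. Cell redox homeostasis had the highest median, with 7 of 11 members above 0. Kinase activity had 50 members with a median of 0.07, of which 2 were at least 1.5-fold higher and none lower. The endomembrane system, the group with most members at 117, had 5 higher and 11 lower at 1.5-fold, and the chloroplast group of 87 had none higher and 3 lower.

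The later step of the EBR arm was compared with that of the control to see where the 2 arms differ. With EBR, 5 probe sets were at least 2-fold higher at 3 h than at 1 h (0.706%) and 11 at least 2-fold lower (1.55%). The spread of the step over probe sets was alike, with an SD of 0.37 with EBR and 0.34 in the control. Across the 708 probe sets the steps of the 2 arms had a Pearson r of 0.45 and a Spearman rho of 0.35. The arms share no arrays here, but probe sets are not independent, the arms may share plant batches, and whether they were normalized together is not given in the labels or headers.

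The 41 probe sets at least 1.5-fold lower in the control had a median step of -0.36 with EBR and -0.79 in the control. Of these, 35 had an EBR step below 0 and 12 were also at least 1.5-fold lower with EBR. Over all 708 listed, 49.9% of EBR steps lay above 0, and 67 passed 1.5-fold in either direction. The level was higher with EBR than in the control for 33 of the 41 at 3 h and likewise for 33 at 1 h. Over all listed it was so for 62.9% at 3 h and 63.1% at 1 h. The 12 at least 1.5-fold higher in the control had a median step of 0.14 with EBR and 0.76 in the control, and 10 had an EBR step above 0. ATL8, AT2G28940 and AT5G14470 were the 3 that passed 1.5-fold in both arms, with EBR steps of 0.89, 0.65 and 0.63. Both sets were picked on the control step, so the smaller medians with EBR are a description and no test of a difference between the arms.

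A second deposited source, made from the same samples as the fold table and so not independent of it, bears on the same difference. The series' value table holds the ratio of EBR to control at each time, processed otherwise than the fold table, and gives the EBR step minus the control step without using the levels. Its step differences had a Pearson r of 0.63 with those of the fold table across the 708 probe sets. For the 41 lower probe sets the median step difference was 0.03 in the value table and 0.33 in the fold table, with the same sign in 27. For the 12 higher ones it was -0.21 and -0.64 in the same order of sources, with the same sign in 11. The share with the same sign over all listed was not counted, so these counts have no background beside them.

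**Figure D5:**
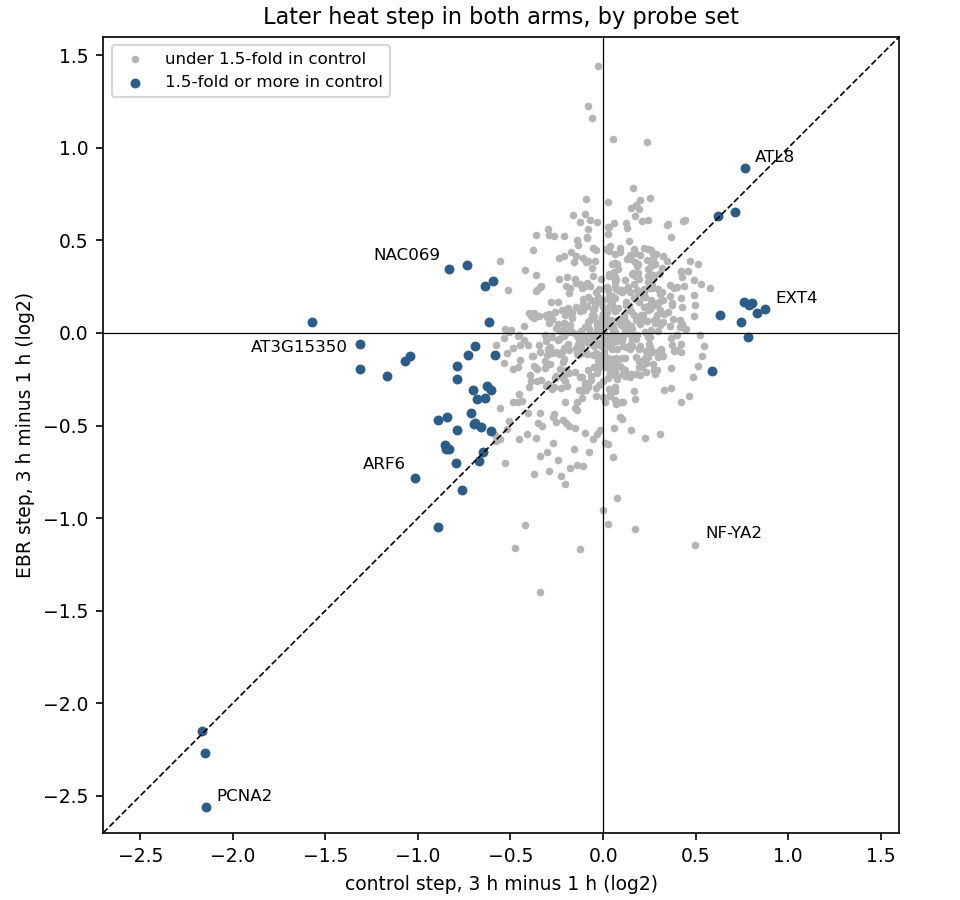
The later step with EBR (vertical axis) against the later step in the control (horizontal axis), both in log2, for the 708 listed probe sets, with the line of equality dashed and those past 1.5-fold in the control coloured. PCNA2 and the 2 probe sets without a locus lie near the line at the lower left, while AT3G15350 lies at an EBR step of -0.06 and a control step of -1.31.

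For several of the 10 genes at least 2-fold lower in the control the sources differed. AT3G15350 had a step of -0.06 with EBR and -1.31 in the control, a difference of 1.25 in the fold table, against 0.03 in the value table. PCC1 had -0.19 with EBR and -1.31 in the control, a difference of 1.12, against -0.01 in the value table. KCS3 differed by 0.92 in the fold table and 0.09 in the value table, and the probe set of AT1G57980 and AT1G57990 by 1.63 and 0.47. For AT3G15350 and KCS3, which had no signal listed at 1 h, a difference between the arms thus rests on the fold table. For PCC1 the difference from mean signal was 1.40, nearer to that of the fold table than to that of the value table. Mean signal comes from the authors' fold tables too, and its step had a Pearson r of 0.96 with the normalized step. It therefore cannot decide between the sources. The shared probe set differed in the same direction in both sources.

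Other genes had a step difference in the same direction in both sources, smaller in the value table. NF-YA2 (AT3G05690), a subunit of the CCAAT-binding NF-Y factor, had a step of -1.14 with EBR and 0.50 in the control, and a difference of -1.64 in the fold table and -0.56 in the value table. NAC069 had 0.35 with EBR and -0.83 in the control, a difference of 1.18 and 0.59 in those sources. AT2G38600 had 1.44 with EBR and -0.03 in the control, a difference of 1.47 and 0.87. AHP4 (AT3G16360), a histidine phosphotransfer protein of cytokinin signalling, had -1.06 with EBR and 0.17 in the control, a difference of -1.23 and -0.21. AOX1D (AT1G32350), an alternative oxidase of mitochondria, had 1.16 with EBR and -0.06 in the control, a difference of 1.22 in the fold table but 0.11 in the value table.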

How the data were processed

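Shoot RNA was hybridised to the ATH1 array. MAS5 and GCRMA are named in the submitters' processing notes, with no version or role, and the sources used here do not give the way arrays were merged. Per the file headers, the authors' deposited tables hold linear fold values (a ratio of condition means), mean signal intensity on a linear scale and normalized log2 values with a baseline per probe set. The deposited value table holds a linear ratio per probe set, read from its values as relative to the control of the same time. The later step is the difference of the deposited log2 columns of the control at 3 h and 1 h, and the deposited folds equalled the column differences to within 4.2e-07. Signal intensity was listed at both times for 177 probe sets, and its log2 step had a Pearson r of 0.96 with the normalized step across them. The control columns of the value table lie at or below 1, and an approximate SD was read from that shortfall. This reading was only weakly borne out over 181 probe sets (Spearman rho of 0.45 and Pearson r of 0.20, as a description). The compared change from 1 h to 3 h had a median size of 0.046 in the fold tables and 0.013 in the value table. These SDs may therefore be too small. The number of arrays limits the precision, and no depth applies.

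Loci and Gene Ontology terms came from the authors' deposited tables and symbols from the TAIR10.1 reference table, in which all 671 loci matched. No build is named in the files, hence coordinates are left out, and the planned look at promoter letters was not run, as no sequence was used here. Named genes are the 15 highest and 15 lowest later steps, up to 5 of each course and 5 step differences each way, and up to 4 members of each list and term, all with 1 locus. Probe sets without 1 locus, and genes chosen after their values were seen, are named as such or as members of a count (the 10 at 2-fold, the courses). The members, lists and rules were chosen with earlier results of these data known. The code for class assignment was checked on simulated steps far from the 2-fold cut, which says nothing of steps near it. Python 3.11.15, pandas 2.3.3 and numpy 2.4.6 were used.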

Additional observations from a re-analysis of the deposited data

Results flagged for a closer look

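In 9 genes the later step ran in opposite directions in the arms, by at least 1.25-fold in each. Each arm has 1 deposited value per time, so none of these differences was tested. The value of EBR step minus control step in the fold table is given, followed by that of the value table.

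Against a step up in the control, NF-YA2 had a difference of -1.64 and -0.56, the receptor kinase gene AT5G63410 had -0.80 and -0.26, and the expansin EXPA11 (AT1G20190) had -0.80 and -0.31. Against a step down in the control, ESP (AT1G54040), the epithiospecifier protein of glucosinolate breakdown, had 0.76 and 0.48, and TBL38 (AT1G29050) had 0.82 and 0.42. AT2G34357 had 0.89 and 0.70, AT5G37540, annotated to proteolysis, had 0.94 and 1.09, DREB26 had 1.10 and 0.73, and NAC069 had 1.18 and 0.59. The sign was the same in both sources for all 9. Both sources come from the same samples and the 9 were picked on the fold table, so this is no independent support. Among all 144 named step differences 32 changed sign.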

How the results depend on the processing

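Each condition has 1 deposited value per probe set, so no step has a replicate error. No paired analysis was possible because each condition is 1 deposited column with no replicate values, and leaving out a replicate could not be run for the same reason. The list was selected on these samples.

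The counts at least 2-fold lower and higher in the control (10 and 0) were 41 and 12 at 1.5-fold and 3 and 0 at 3-fold. From log2 signal they were 4 and 1 over the 177 probe sets with signal at both times, where the normalized values gave 4 and 0 (an alternative added after seeing the data). They were 10 and 0 with each condition centred on its median, and 7 and 0 with 1 locus and no shared-sequence name. They were 9 and 0 where the step also had to exceed 3 approximate standard errors, which left out PCC1. Without the 36 probe sets whose listed control signal was low at both times they were 9 and 0, with SLAH3 removed. The bounds here were 17.9 at 1 h and 18.7 at 3 h, and probe sets without a listed signal were kept. PCC1, AT5G13200, AT3G15350 and KCS3 thus stayed, with signals of 17.7, 14, 16 and 12.6 at 3 h. That count therefore cannot show whether the falls hold without dim probe sets. The courses lower in both, higher then lower, and lower then higher (3, 2 and 0) held 18, 9 and 6 at 1.5-fold and 0, 0 and 0 at 3-fold, and none was higher in both. Medians of the term groups moved by less than the median approximate standard error (0.13) in all 26 groups when centred and in 14 of the 23 with signal. The signal medians cover only the members with a listed signal, such as 13 of 64 for nucleus. The members and the scale thus change together, and the cause of the other 9 shifts was not tested. Named steps moved by less than their own approximate standard error in 143 genes when centred, all but 1, and in 57 of the 65 with signal. Of the 65, 4 changed sign, among them LTP4. In the value table (added after seeing the data) the shift of each named step difference was set against the control step's approximate standard error, scaled up for both arms. No spread of the EBR arm was read, so this is not the error of the difference itself. By that measure 74 of 144 moved by less and 69 by more. PCC1, at least 2-fold in the fold table, changed sign (-0.014). In all, 32 of the 144 changed sign, such as LTP2 (0.34 in the value table and -0.64 in the fold table), AT1G52000 (-0.33 and 0.39) and DAA1 (0.17 and -0.64), and the cause was not tested.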
